A study of Homo sapiens with 8 samples.

Results

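The metallothionein genes that lie side by side on the long arm of human chromosome 16 were followed through the 4 conditions of this RNA-seq experiment. They were MT3, MT2A, MT1L, MT1E, MT1M, MT1A, MT1F, MT1G, MT1H and MT1X, in the order of their positions, and made up 10 of the 57773 genes counted. They were chosen by family name and position, with the counts of the HERVH knockdown libraries already known, MT1M being among the genes that stood out there, so that the values of HERVH knockdown against WT are given below as a description, and no support is drawn from a call made there. The cells were the H9 line of human embryonic stem cells (hESC), with 2 libraries in each of 4 groups. WT cells had the genotype wild type (CHD7-HA), in which the endogenous chromatin remodeler CHD7 carries an HA tag, and were untreated. CHD7 knockout cells were CHD7 -/- and untreated. HERVH knockdown cells were of the wild type (CHD7-HA) genotype and were harvested 24 h after treatment with LNA-GapmeRs, antisense oligonucleotides that lead to cleavage of their target RNA, here that of HERVH, a family of endogenous retroviruses transcribed in hESC. HERVH element deleted cells lacked one HERVH element on chromosome 2 and were untreated.

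Several features of these groups limit what they can stand for. According to the methods, cells for the knockdown were seeded in medium with ROCK inhibitor and transfected with a lipid reagent, whereas WT cells were labelled untreated, so that the effect of losing HERVH RNA cannot be told apart from that of seeding, transfection or the oligonucleotides themselves. No library of cells given a control GapmeR was analysed here. Knockout and deleted lines were grown from picked colonies, and the labels do not tie a library to a clone. The study worked mainly with a stop codon mutation of CHD7, and the labels do not name the mutation. Nothing in the labels says that the 2 replicates of a group were separate cultures, so the p-values below measure only the spread between these libraries. Reads on genes ranged from 14802049 to 23156445 per library. CHD7 itself had 651 and 650 CPM (read counts divided by TMM-adjusted library size) in WT, 197 and 197 in CHD7 knockout and 514 to 711 in the other 4 libraries. ESRG, a long noncoding RNA known to derive from an HERVH copy and chosen here after its values were seen, was at 468 and 337 CPM in WT, 170 and 158 in HERVH knockdown, 253 and 322 in CHD7 knockout and 384 and 331 in HERVH element deleted cells. Other HERVH-derived transcripts were not analysed here, and the deleted element, which the study places between genes, was not checked. The 5 pluripotency markers POU5F1, SOX2, NANOG, LIN28A and DNMT3B summed to 4417 to 5590 CPM in every library, and none was called in any comparison, while 4 to 6 of 9 differentiation markers were at 3 counts or fewer in both libraries of each group. Summed, the differentiation markers were at 13.8 and 13.2 CPM in the knockdown and 3.19 to 9.15 CPM in the 6 other libraries. The endoderm factor FOXA2, at 10.3 and 9.69 CPM in the knockdown and 1.39 and 4.96 in WT (edgeR, FDR = 0.0719), and AFP, at 1.81 and 2.11 CPM against 0.554 and 0.655 (FDR = 0.113), were not called there. PAX6, the other tested marker, went the other way, at 1.533 and 0.947 CPM in the knockdown and 1.755 and 1.684 in WT. The 6 remaining markers, with SOX17, GATA4 and GATA6 among them, were at 3 counts or fewer in both knockdown libraries. FOXA2 thus made up most of the summed level there. The part of these markers in the metallothionein values was not tested.

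Metallothioneins are small, cysteine-rich proteins that bind zinc, copper and cadmium and buffer the free metal of the cell. Their genes are switched on when the zinc-sensing transcription factor MTF1 binds metal response elements in their promoters, and they are also known to respond to oxidative stress and to glucocorticoids. MT2A and the MT1 genes are widely expressed, MT3 is known chiefly from brain, and MT1L is a pseudogene.

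The cluster spans 95.1 kb on GRCh37, from the start of MT3 at position 56622986 to the end of MT1X at position 56718108. MT2A (ENSG00000125148) lies at 56642496 to 56643409, MT1E (ENSG00000169715) at 56659387 to 56661024, MT1M (ENSG00000205364) at 56666571 to 56667893 and MT1F (ENSG00000198417) at 56691643 to 56694610, all on the plus strand. MT1G (ENSG00000125144), at 56700642 to 56701977, is the one member on the minus strand, and MT1X (ENSG00000187193) follows at 56716382 on the plus strand. The metallothionein genes are close paralogs, and reads that align to more than one place were not counted on genes, so counts of single members can be too low where their sequences match. Whether strand was used in counting is not stated. MT1X overlaps another annotated gene, ENSG00000259827, which has the same start and strand, so strand could not separate the 2 genes. Reads on bases that both share may have been left out as ambiguous, and counts of MT1X can be too low.

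RefSeq promoter sequences (GRCh38.p14) were at hand for 3 of the 10 members, MT2A, MT1H and MT1X. They are shown because the family is known for repeated metal response elements. MT1H had at most 5 counts in any library and was not tested, so the promoters are not set against the values after knockdown. Each line gives the 250 bases before the annotated start, 5′ to 3′ on the plus strand, with every match to the core of the metal response element in capitals, that is TGCACNC or TGCGCNC on either strand.
MT2A, chr16:56608334-56608583: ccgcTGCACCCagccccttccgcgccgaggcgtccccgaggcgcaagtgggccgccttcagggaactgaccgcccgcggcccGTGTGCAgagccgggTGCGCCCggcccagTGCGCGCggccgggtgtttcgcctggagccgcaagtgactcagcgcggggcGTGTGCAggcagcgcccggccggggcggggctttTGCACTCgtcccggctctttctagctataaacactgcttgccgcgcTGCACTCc
MT1H, chr16:56669564-56669813: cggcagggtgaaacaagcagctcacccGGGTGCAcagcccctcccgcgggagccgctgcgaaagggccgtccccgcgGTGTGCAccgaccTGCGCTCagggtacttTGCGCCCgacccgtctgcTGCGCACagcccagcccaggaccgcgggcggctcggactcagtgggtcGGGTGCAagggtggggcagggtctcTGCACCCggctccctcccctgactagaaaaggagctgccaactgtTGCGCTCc
MT1X, chr16:56682220-56682469: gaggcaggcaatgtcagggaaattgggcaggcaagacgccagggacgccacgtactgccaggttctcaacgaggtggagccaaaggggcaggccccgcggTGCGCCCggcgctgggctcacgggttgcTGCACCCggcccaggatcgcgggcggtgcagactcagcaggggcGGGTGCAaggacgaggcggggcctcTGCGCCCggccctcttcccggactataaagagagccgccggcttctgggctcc

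The core occurred 7 times in the MT2A window, 8 times in that of MT1H and 4 times in that of MT1X. Of the 35114 RefSeq promoters searched over the same 250 bases, 24.8% held at least 1 match, 0.37% held at least 4 and 0.0313% held at least 7. These windows were richer in G and C, at 70.0% to 73.2%, than the median promoter at 58.0%, and base composition bears on how often the core is met. The core of the antioxidant response element, TGACNNNGC on either strand, occurred once each in the windows of MT2A and MT1X and not in that of MT1H, and at least once in 10.9% of all promoters. A match is a string of letters and not a measured binding site.

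In WT cells the family was expressed at a low level, and mostly from 5 genes. MT2A had 109 and 53 counts in the 2 WT libraries, MT1E 83 and 29, MT1F 68 and 36, MT1G 46 and 14, and MT1X 40 and 16. MT1M had 3 and 0 counts. WT replicate 1 was the higher library for all 6 of these genes, by 1.87-fold for MT1F to 3.24-fold for MT1G where a fold can be given, although the WT libraries were of nearly the same depth. MT1A and MT1H had no counts in WT, MT1L had 0 and 1, and MT3 had 2 and 0. The limit that 3 counts set ranged from 0.128 to 0.218 CPM over the 8 libraries and covers counting error only.

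Levels of different genes were compared per kilobase of the canonical transcript. On this scale the WT order was MT2A (9.37 ± 4.50 CPM per kb, SD, n = 2), MT1F (5.68 ± 2.42), MT1E (3.48 ± 2.35), MT1G (3.39 ± 2.53) and MT1X (3.21 ± 1.92), and the replicate ranges of each pair of neighbours overlapped. MT1M followed at 0.174 ± 0.246 CPM per kb. MT2A also came first per kilobase of all annotated exons, on which scale MT1F came after MT1E and MT1G. In HERVH knockdown cells MT2A stood apart at 105 ± 85.2 CPM per kb, its lower library (44.4) above the higher library of MT1F (18.5). MT1F (15.1 ± 4.89), MT1E (11.0 ± 7.41), MT1M (10.1 ± 7.92) and MT1G (8.22 ± 4.45) overlapped as neighbours, and MT1X (2.84 ± 0.570) lay below both libraries of MT1G. In CHD7 knockout cells MT1G was first at 5.33 ± 4.34 CPM per kb, ahead of MT2A at 3.77 ± 3.21, with overlapping ranges. In HERVH element deleted cells the order began with MT2A at 9.77 ± 3.12 and MT1F at 6.30 ± 2.62, which overlapped, and MT1G at 2.12 ± 1.13 lay below both libraries of MT1F.

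**Figure D1:**
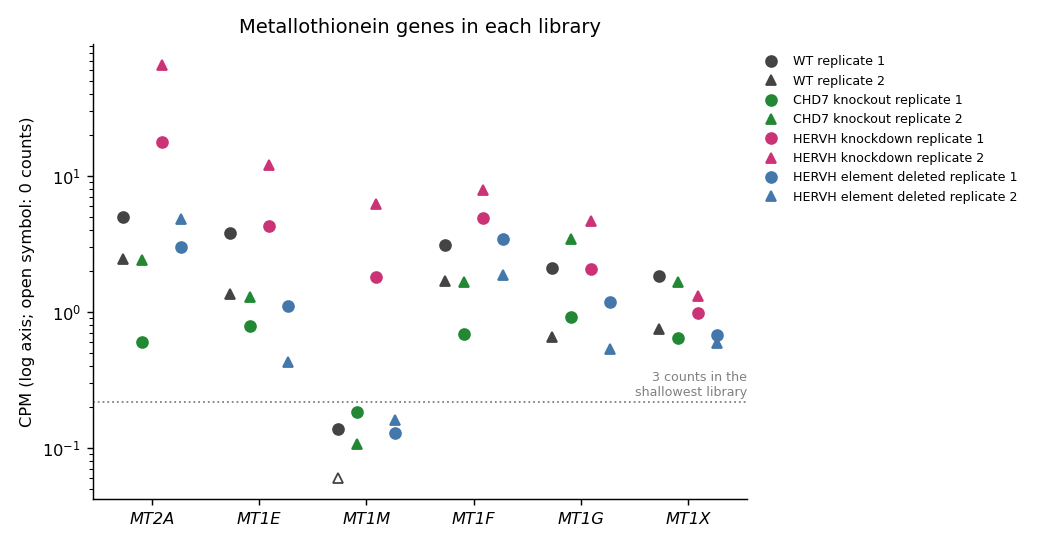
CPM on a log axis of the 6 members that passed the expression filter, with 1 symbol per library coloured by group, circles for replicate 1 and triangles for replicate 2. MT2A reached 17.8 and 66.1 CPM in the knockdown libraries against at most 5.03 elsewhere, and MT1M lay near or below 3 counts outside the knockdown.

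Summed over the 10 genes, the family made up 16.2 and 6.97 CPM in WT, 3.97 and 11.0 in CHD7 knockout, 32.4 and 99.1 in HERVH knockdown and 9.66 and 8.47 in HERVH element deleted cells. Both knockdown libraries lay above the 6 others, and knockdown replicate 2 was well above replicate 1. The mean of the knockdown libraries was 65.7 ± 47.2 CPM (SD, n = 2) and that of WT 11.6 ± 6.53. Without MT2A the sums were 14.6 and 33.0 CPM in the knockdown and 11.2 and 4.49 in WT. Without MT1M as well they were 12.8 and 26.7 CPM in the knockdown and 11.0 and 4.49 in WT. The lower knockdown library then exceeded the higher WT library by little. Because the members were chosen with this comparison known, the sums are given as a description.

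**Figure D2:**
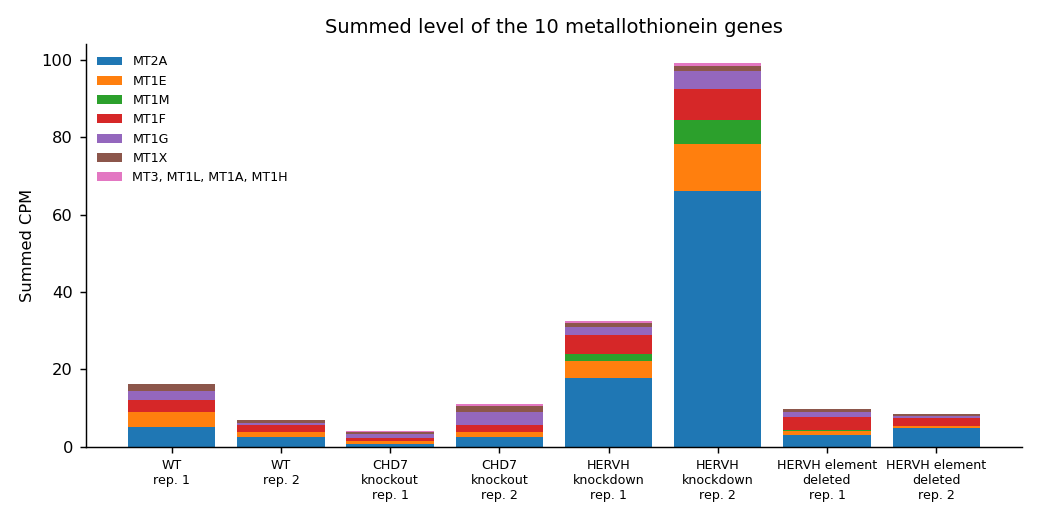
Summed CPM of the 10 metallothionein genes in each of the 8 libraries, stacked by gene. The knockdown libraries reached 32.4 and 99.1 CPM, and the 6 others lay between 3.97 and 16.2 CPM.

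In HERVH knockdown cells, MT2A and MT1M were far above their WT levels, MT1E and MT1F were moderately higher, and MT1X was not. MT2A, usually the most abundant metallothionein, had 325 and 908 counts, or 17.8 and 66.1 CPM, against 5.03 and 2.48 CPM in WT. Its fitted log2 fold change was 3.47 ± 0.59 (SE). MT1M had 33 and 86 counts, or 1.81 and 6.26 CPM, against 3 and 0 counts in WT. The ratio of its pooled, depth-scaled counts was 53.4, with an exact 95% interval of 17.8 to 262 for counting error alone, with no more than 3 counts in WT to set it against. For both genes each knockdown library was above all 6 others.

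MT1E was at 4.27 and 12.1 CPM after knockdown and at 3.83 and 1.36 in WT, a log2 fold change of 1.64 ± 0.55. The lower knockdown library exceeded the higher WT library by little. MT1F was at 4.93 and 7.87 CPM against 3.14 and 1.68, a log2 fold change of 1.40 ± 0.45. MT1G overlapped with WT, at 2.08 and 4.66 CPM against 2.12 and 0.655, and its log2 fold change was 1.26 ± 0.66. MT1X, at 0.986 and 1.31 CPM, lay between its WT values of 1.85 and 0.748, with a log2 fold change of -0.19 ± 0.58.

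The 4 members that did not pass the filter stayed near the limit of detection in the knockdown too. MT1L had 2 and 7 counts, MT1A 1 and 3, MT1H 5 and 1, and MT3 1 and 0. Among the 10 metallothionein genes and pseudogenes outside the list, none passed the filter and 4 had any counts. MT1JP, a transcribed pseudogene, had 1 and 5 counts in the knockdown libraries and 1 in the 6 others together. MT2P1 had 3 and 2 there, and 2 elsewhere, all in HERVH element deleted replicate 2. MT1P1 and MT1XP1 had at most 8 counts in any library, and their highest counts were outside the knockdown.

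Of the 10 members 6 were tested, and MT1M passed the filter through the knockdown libraries alone, since it had at most 4 counts in every other library. A gene was called by edgeR's quasi-likelihood test when it changed at least 2-fold and its FDR, adjusted by Benjamini-Hochberg across the whole table, was below 0.01. In HERVH knockdown against WT, MT1M was the 1 member past this threshold, which the choice of members had already used, and 0.217% of all 23474 genes tested were called. Both knockdown libraries were above both WT libraries for MT2A, MT1E, MT1M and MT1F, and this was so for 22.5% of all genes tested. The median log2 fold change was 1.40 over the 5 tested members other than MT1M, and 0.04 over all genes. It was 2.33 without WT replicate 1 and 0.71 without knockdown replicate 2. Because the members were chosen with this comparison known, nothing is read from these counts.

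**Figure D3:**
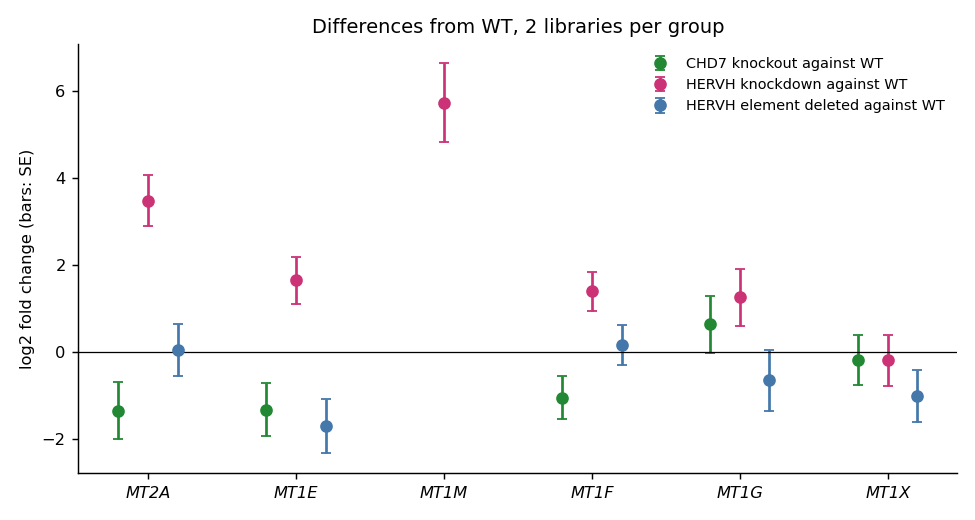
Log2 fold change against WT of the tested members from the fit of all 8 libraries, with bars for 1 SE and colours for the 3 comparisons. MT1M is drawn for the knockdown alone, since its counts are at about the limit of detection in the other groups, and its fitted value there depends on the prior count. MT2A (3.47) and MT1M lie highest in the knockdown, and MT1X is near or below 0 in all 3 comparisons.

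In the knockdown the make-up of the family differed from that in WT, as did its sum. MT2A gave 31.1% (Wilson 95% interval 26.4 to 36.1) and 35.6% (28.3 to 43.5) of the family's counts in the WT libraries, and 55.0% (51.0 to 59.0) and 66.7% (64.2 to 69.2) in the knockdown. MT1M gave 0.855% (0.291 to 2.48) and 0 of 149 counts (0 to 2.51) in WT and 5.58% (4.00 to 7.74) and 6.32% (5.14 to 7.74) in the knockdown. MT1X gave 11.4% (8.48 to 15.1) and 10.7% (6.72 to 16.7) in WT and 3.05% (1.94 to 4.76) and 1.32% (0.838 to 2.08) in the knockdown. HERVH element deleted replicate 2 also had a high MT2A share, 56.7% (48.9 to 64.2), with 31.4% (25.7 to 37.7) in replicate 1. The summed levels of these libraries lay within the WT range. In CHD7 knockout cells MT2A gave 15.1% (9.05 to 24.2) and 22.1% (16.9 to 28.2). MT1G gave 23.3% (15.6 to 33.2) and 31.4% (25.4 to 38.0) there, and 13.1% (9.97 to 17.0) and 9.40% (5.68 to 15.15) in WT. These intervals cover counting error only, and the counts were made without molecular identifiers.

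The knockdown libraries differed from each other in ways that touch these genes. Replicate 2 was the shallowest library, had the largest share of reads with more than one alignment (7.65%, against 5.58% to 5.99% in the other 7) and was higher in genes rich in G and C. The comparison set was 2100 genes with the GC content of the tested members, 53.7% to 58.6%, and a mean log2 CPM above 1. MT1M, MT1G and MT1X lay below that mean level themselves. Counting error is larger at low counts, so for these members the comparison is not like for like. Over the 2100 genes the median difference of replicate 2 from replicate 1 was 0.41 on the log2 CPM scale, with 5th and 95th percentiles of -0.24 and 1.12. MT2A differed by 1.89, MT1M by 1.74 and MT1E by 1.48, all above that 95th percentile. MT1G, at 1.13, lay just above it, and MT1F (0.66) and MT1X (0.38) lay below it. With a correction for GC content, chosen after seeing the data, the log2 fold change of MT2A was 3.31, and without knockdown replicate 2 it was 2.23. The 5 fibroblast markers COL1A1, COL1A2, POSTN, LUM and DCN summed to 173 and 467 CPM in the knockdown and 147 to 253 CPM in the 6 other libraries. Nearly all of the sum came from 2 collagen genes, COL1A1 (93.6 and 269 CPM in the knockdown) and COL1A2 (77.6 and 197). LUM and DCN were at 3 counts or fewer in every group, so the sum does not mark fibroblasts as such. The part of these markers in the result was not tested. In bulk RNA, more cells expressing a gene and more RNA per cell cannot be told apart.

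In CHD7 knockout cells, MT2A, MT1E and MT1F were below WT in both libraries, and none of the 10 members was called by edgeR, where 0.571% of all genes tested were called. MT2A was at 0.601 and 2.42 CPM against 5.03 and 2.48 in WT, a log2 fold change of -1.35 ± 0.66. MT1E was at 0.786 and 1.29 CPM (-1.33 ± 0.61), and MT1F at 0.693 and 1.67 CPM (-1.05 ± 0.49). For MT2A and MT1F the higher knockout library was barely below the lower WT library (2.42 against 2.48 CPM, and 1.67 against 1.68 CPM). Both libraries below both WT libraries were seen for these 3 of the 6 tested members and for 22.4% of all genes tested. MT1G went the other way, at 0.924 and 3.44 CPM against 2.12 and 0.655 (0.63 ± 0.66), and MT1X was at 0.647 and 1.67 CPM (-0.18 ± 0.57), both overlapping with WT. The median over the 5 tested members other than MT1M was -1.05, beside -0.01 over all genes, and ran from -1.70 without CHD7 knockout replicate 2 to -0.37 without WT replicate 1. At an unadjusted p below 0.05, edgeR gave 1 of the 6 tested members, MT1E, and 10.9% of all genes, and DESeq2 called no member. Without WT replicate 1 the log2 fold change of MT1E was -0.37 and that of MT1F -0.50, and without CHD7 knockout replicate 1 that of MT2A was -0.63. Without CHD7 knockout replicate 2, MT2A was at -2.61 and MT1G turned to -0.57. CHD7 knockout replicate 2 was higher than replicate 1 for MT2A, MT1E, MT1F, MT1G and MT1X, by 1.64-fold to 4.03-fold. MT1M had 4 and 2 counts, a pooled ratio to WT of 2.14 with an exact interval of 0.457 to 13.2.

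In HERVH element deleted cells, which lack one HERVH copy, MT2A was at 3.04 and 4.80 CPM, within the WT range, with a log2 fold change of 0.05 ± 0.59. None of the 10 members was called by edgeR or DESeq2, and 0.0298% of all genes tested were called by edgeR. MT1E was at 1.11 and 0.432 CPM, below both WT libraries, with a log2 fold change of -1.71 ± 0.62, and was the 1 member at an unadjusted p below 0.05, beside 2.63% of all genes. It was -0.75 without WT replicate 1 and -2.56 without deleted replicate 1. MT1X was also below both WT libraries, at 0.684 and 0.594 CPM (-1.01 ± 0.60), and this held for 20.3% of all genes tested. Without WT replicate 1 the log2 fold change of MT1X was -0.20. MT1F, at 3.46 and 1.89 CPM (0.16 ± 0.46), and MT1G, at 1.20 and 0.540 CPM (-0.65 ± 0.70), overlapped with WT. MT1M had 3 and 3 counts. The median over the other 5 tested members was -0.65, beside -0.02 over all genes. Without WT replicate 1 this median turned to 0.45, and without WT replicate 2 it was -1.26. All 3 comparisons share the WT libraries, which themselves differed from 1.87-fold to 3.24-fold in these genes.

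Genes that act with the metallothioneins in metal handling and stress were drawn from 6 lists, with 54 of 61 genes tested. Over all genes tested in the knockdown, edgeR called 0.217% and gave 19.0% an unadjusted p below 0.05. The counts for each list are to be read beside these shares. MTF1, the zinc sensor that drives metallothionein genes, was at 30.8 and 29.9 CPM in WT and 35.5 and 25.4 CPM in the knockdown, with a log2 fold change of 0.01 ± 0.19 (edgeR, FDR = 0.99). SLC30A1, a zinc exporter and another target of MTF1, was at 83.4 and 42.4 CPM in WT and 59.8 and 64.5 in the knockdown (-0.02 ± 0.27, FDR = 0.982), and its WT libraries differed in the same direction as those of the metallothioneins. None of the 8 tested genes for the zinc sensor and exporters was called after knockdown by edgeR or DESeq2, with 1 at an unadjusted p below 0.05, SLC30A10, and the list's median log2 fold change was -0.01 beside 0.04 over all genes. None of the 12 tested zinc importers was called by either tool, with 1 at an unadjusted p below 0.05. This was SLC39A10, also the importer with the highest CPM, at 421 and 371 CPM in WT and 285 and 170 in the knockdown (-0.80 ± 0.20, FDR = 0.0564). SLC39A14 was at 318 and 347 CPM in WT and 309 and 350 in the knockdown. Of the 8 tested genes of copper handling none was called by either tool and 2 had an unadjusted p below 0.05, SCO1 (0.61 ± 0.19) and the copper-exporting ATPase ATP7B (-0.49 ± 0.22). SOD1, the copper-zinc superoxide dismutase, had a log2 fold change of 0.39 ± 0.21.

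Among genes of the NRF2 pathway, which responds to oxidative stress, NQO1 rose in the knockdown and was the only one of 11 tested that was called. NQO1, a quinone reductase, was at 17.9 and 20.8 CPM in WT and at 50.7 and 55.9 in the knockdown, a log2 fold change of 1.46 ± 0.20 (edgeR, FDR = 0.00572). Its knockdown libraries were above all 6 others. The call was lost without WT replicate 1 (FDR = 0.104), WT replicate 2 (0.0261), CHD7 knockout replicate 1 (0.0121) or CHD7 knockout replicate 2 (0.0103), and in a fit of the 4 libraries compared (0.0355), with log2 fold changes of 1.36 to 1.58 in these fits. Of the 11 genes, 9 had a positive log2 fold change and 6 had an unadjusted p below 0.05, as did 19.0% of all genes tested, and the median was 0.58 beside 0.04 over all genes. Others below that p, named after their values were seen, were HMOX1, heme oxygenase, at 0.69 ± 0.20 (FDR = 0.0913) and SQSTM1 at 0.85 ± 0.21 (FDR = 0.0514). So were KEAP1, the inhibitor of NRF2, at 0.82 ± 0.20 (FDR = 0.0541), GCLM at 0.58 ± 0.19 and GCLC at 0.38 ± 0.16. TXNRD1 (0.04 ± 0.14), SLC7A11 (-0.17 ± 0.22) and OSGIN1 (-0.75 ± 1.1) lay near or below 0. SQSTM1, at 76.5 and 120 CPM, and KEAP1, at 76.8 and 111, were higher in knockdown replicate 2, as were genes rich in G and C. The gene for NRF2 itself, NFE2L2, had a log2 fold change of 0.10 ± 0.19.

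None of the 8 tested heat shock genes was called after knockdown by either tool. HSPA8, a constitutive chaperone, was the 1 gene with an unadjusted p below 0.05 and had a log2 fold change of 0.85 ± 0.19 (edgeR, FDR = 0.0397), which is under 2-fold. Of the 7 tested genes of the glucocorticoid response none was called and 1 had an unadjusted p below 0.05, DUSP1. For both lists the share over all genes tested was 0.217% called and 19.0% at such a p in edgeR. The 2 with the highest CPM in WT, FKBP5 (-0.14 ± 0.16) and PER1 (-0.16 ± 0.18), are known targets of the receptor. The gene of the receptor itself, NR3C1, had 0.29 ± 0.19, the 1 positive log2 fold change of this list. In CHD7 knockout cells none of the 54 genes was called by edgeR or DESeq2, and 4 had an unadjusted p below 0.05 in edgeR, as did 10.9% of all genes tested. In HERVH element deleted cells 1 was called, the inducible chaperone gene HSPA1A, which fell from 19.4 and 15.9 CPM in WT to 1.92 and 1.35 CPM, a log2 fold change of -3.41 ± 0.29 (edgeR, FDR = 0.000112). HSPA1A has a near-identical copy, HSPA1B, whose log2 fold change there was -0.06 ± 0.22. Reads that align to both copies were not counted, so both values rest on the reads that tell the copies apart and remain uncertain.

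**Figure D4:**
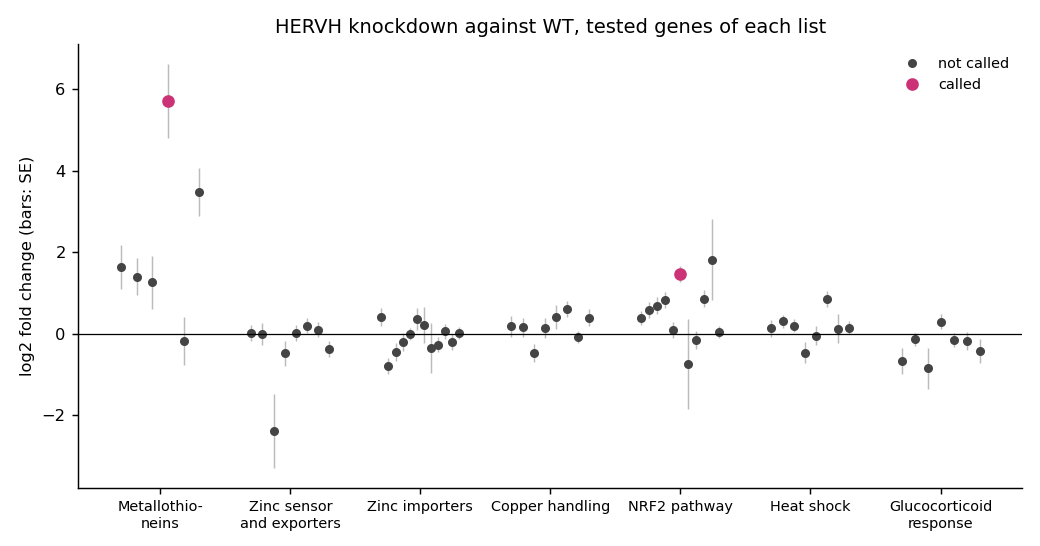
Log2 fold change in HERVH knockdown against WT of each tested metallothionein gene and each tested gene of the 6 metal and stress lists, with bars for 1 SE and called genes in colour. MT1M, whose fitted value rests on 3 WT counts and depends on the prior count, and NQO1 were called, and the zinc and copper lists lie around 0 with 1 gene, SLC30A10, at -2.39 and not called.

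The genes around the cluster were examined within 500 kb on either side, where 15 of 32 genes were tested. After knockdown none was called by edgeR or DESeq2, and edgeR called 0.217% of all genes tested. By edgeR 1 flanking gene had an unadjusted p below 0.05, as did 19.0% of all genes tested. The log2 fold changes of the flanking genes ran from -0.87 to 0.60 with a median of -0.13. The nearest tested gene on the left, BBS2, ends 6.4 kb before MT3 and had a log2 fold change of -0.21 ± 0.19, and the nearest on the right, NUP93, a nuclear pore gene 45.9 kb beyond MT1X, had -0.13 ± 0.14. In HERVH element deleted cells no flanking gene was called by either tool, and edgeR called 0.0298% of all genes tested. None had an unadjusted p below 0.05 in edgeR, beside 2.63% of all genes.

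**Figure D5:**
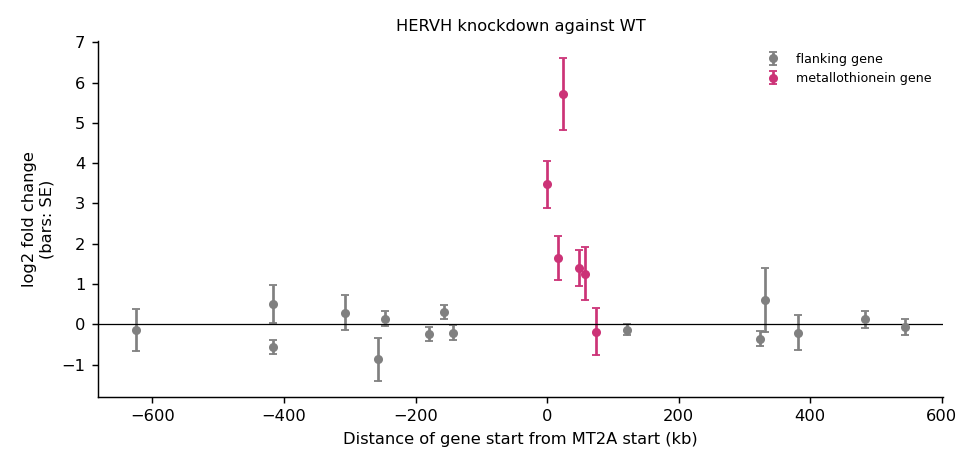
Log2 fold change against the distance of each tested gene's start from that of MT2A, in kb, for HERVH knockdown against WT, with bars for 1 SE and the metallothionein genes in colour. In the knockdown the flanking genes lie between -0.87 and 0.60, while MT2A reached 3.47. The highest point is MT1M, whose fitted value rests on 3 WT counts and depends on the prior count. The metallothionein genes were chosen with this comparison known.

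Across the 8 libraries the members with counts in every library moved partly together. The Pearson correlation of log2 CPM was 0.93 for MT2A with MT1F, 0.82 for MT2A with MT1E, 0.82 for MT1G with MT1X and 0.36 for MT2A with MT1X, and the median over the 10 pairs of 5 genes was 0.71. The libraries share scaling, and reads that align to more than one paralog were not counted. These correlations also include the knockdown libraries, whose values were known when the members were chosen, so they are given as a description. The 5 genes outside the family with the pattern most like the summed level of the family, over the same 8 libraries, were TIMP1 (r = 0.991), an inhibitor of metalloproteinases, SCARF1 (0.979), a scavenger receptor, GPER1 (0.961), a G protein-coupled estrogen receptor, TNFRSF1A (0.959), a receptor of tumor necrosis factor, and ZNF304 (0.953). They were picked for the highest r among 14933 genes compared, so a high r follows from the selection. The summed level is set mainly by the knockdown libraries, known when the members were chosen. None of the 5 was called in any comparison, and shared regulation was not tested. TIMP1 was at 22.2 and 17.3 CPM in WT, 15.1 and 18.1 in CHD7 knockout, 26.9 and 36.3 in HERVH knockdown and 18.9 and 17.1 in HERVH element deleted cells. GPER1 ranged from 1.29 CPM in CHD7 knockout replicate 1 to 13.3 CPM in knockdown replicate 2. TNFRSF1A covered a narrower range, from 41.6 to 55.5 CPM, with the knockdown libraries highest.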

How the data were processed

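RNA-seq of 8 libraries of H9 hESC was used. The authors removed rRNA before preparing strand-specific libraries. They aligned reads by STAR to hg19 (GRCh37) and obtained a count for each Ensembl gene from HTSeq. The deposited values are raw counts per gene, without normalization; tool versions and the strand setting are not given in the sources used here. Reads outside genes (32.9% to 40.0%), ambiguous reads (3.58% to 4.39%) and reads with several alignments stayed out of the library sizes. Groups were taken from the labels.

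From these counts, CPM with TMM scaling and edgeR's quasi-likelihood test (edgeR 4.0.16, R 4.3.3) were computed, all 8 libraries entering 1 model of the groups with 4 residual degrees of freedom, after filterByExpr with its defaults. SE is the absolute log2 fold change divided by the square root of F. Values per kb used canonical transcript lengths of GENCODE 44 on GRCh37, and log2 CPM for correlations had a prior count of 2. DESeq2 1.42.0 and the other alternatives are given in the closing section. Scripts were tested on simulated data.

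The members and gene lists were chosen with earlier results of these data known. The text names every member and other metallothionein gene with counts, MTF1 and SLC30A1, up to 4 called genes of a list by size of change or otherwise up to 3 by CPM, the nearest and any called flanking genes, and the 5 genes most like the family among those with a mean log2 CPM of at least 1. Some results that this rule covers are not reported here. Named beyond this rule, after their values were seen, were list genes with an unadjusted p below 0.05 and NFE2L2, DUSP1, HSPA1B, ATP7B, ESRG, FOXA2 and AFP. TXNRD1, SLC7A11, OSGIN1, PAX6, SOX17, GATA4 and GATA6 were named in the same way. Promoters were RefSeq's. With 2 libraries per group no outlier test was made.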

Additional observations from a re-analysis of the deposited data

How the results depend on the processing

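The log2 fold changes of MT2A, MT1E, MT1M, MT1F and MT1G in the knockdown kept their direction under all alternatives tried, from 2.23 to 4.82 for MT2A, 0.71 to 3.35 for MT1E and 1.02 to 2.44 for MT1F, while that of MT1X ran from -0.69 to 0.82. These ranges include CHD7 knockout or HERVH element deleted libraries as the reference. The number of members called there was 1 in the fit reported, 2 with RLE scaling, with the GC correction and at FDR < 0.05, 3 without a filter beyond 1 count, 0 with a mean CPM of at least 1 and 0 in a fit of the 4 libraries compared. It ranged from 0 to 3 as each library was left out in turn: 0 without either WT or either CHD7 knockout replicate, 3 without knockdown replicate 1 and 2 without either HERVH element deleted replicate. DESeq2 called 1 member, MT2A, and gave MT1M no adjusted p. In CHD7 knockout cells 1 member, MT2A, was called without a filter beyond 1 count and 0 otherwise. Metal and stress genes called in the knockdown were 0 in the fit of 4 libraries and 0 to 4 with a library left out. The cause of these changes was not tested. In CHD7 knockout cells MT2A, MT1E and MT1F kept their direction (-2.61 to -0.63 for MT2A), whereas in HERVH element deleted cells MT2A ran from -0.37 to 0.67 and MT1F from -0.34 to 0.70. In the other counts no setting changed the calls.

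Replicate numbers are shared between groups in the labels, but nothing says that they mark a shared batch; the deviations of same-numbered libraries correlated with those of WT at -0.233 for CHD7 knockout, 0.286 for HERVH knockdown and 0.427 for HERVH element deleted cells over 12704 genes. With the replicate block, 1 member was called in the knockdown, MT2A in place of MT1M, and 0 in each other comparison. Outside the knockdown no member exceeded 109 counts in a library, so counting error is large for this family. Replicates of tested members differed by up to 4.03-fold. MT2A differed by 3.72-fold between the knockdown libraries, at 325 and 908 counts, and the part of depth in this spread was not tested.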
